A study of Mus musculus with 3 samples.

Results

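The liver genes of methionine and one-carbon metabolism studied here, Mat1a, Gnmt, Ahcy, Bhmt, Bhmt2, Cbs, Cth, Shmt1 and Mthfd1, were examined for binding of RARα and RXRα in mouse liver. They were taken by name from the 22367 protein-coding genes of GENCODE M1 on NCBI37/mm9, and all 9 were found. RARα peaks, RXRα signal and input signal were read within 10 kb of each gene start and over each gene body. Chromatin came from the liver of wild type male C57BL/6 mice aged 3 months, with no treatment named in the labels. It was ground in liquid nitrogen, fixed, sonicated and precipitated with antibody. There was 1 RXRα ChIP library, 1 input library and 1 RARα ChIP library, so no difference between libraries has a replicate check and no test was run. Whole liver holds several cell types, and these libraries cannot assign binding to one of them. Peaks in more cells and stronger binding per cell cannot be told apart.

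RARα and RXRα are nuclear receptors that bind DNA together as a heterodimer, with RARα as the receptor for retinoic acid and RXRα as the shared partner of many other liver receptors. The methionine cycle turns methionine into S-adenosylmethionine, the methyl donor of the cell, and returns the homocysteine left after methyl transfer either to methionine or, through transsulfuration, to cysteine. Folate enzymes supply the one-carbon units of this exchange, and the liver is the main site of methionine breakdown.

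The RXRα track summed to 9999939 reads and the input track to 9999292 reads, both given as coverage in 32 bp bins in which 1 read fills 5 bins. These are totals of the deposited tracks and not the sequencing depth, since the paper reports more uniquely mapped RXRα reads. The mean input was 0.603 per bin. The RARα list held 143280 peaks with a median score of 12 and no coverage track. The paper reports the total of uniquely mapped RARα reads, but the reads behind a single RARα peak are unknown. The list does not say what its score measures, so scores are compared only with each other. A RARα peak was counted above a score of 20 when its summit lay within 10 kb of the gene start. An RXRα region was a run of bins with at least 20 times the larger of local and mean input. A RARα peak was called co-localized when it overlapped an RXRα region by at least 25% of the narrower of the pair. The highest ratio of a region and its position are given separately, since a position is that of the bin of highest RXRα signal and the highest ratio can lie in a neighbouring bin with less input. Distances are signed, with negative values upstream of the gene start. All ratios of RXRα to input reads carry 95% exact intervals, which rest on the reads of the deposited tracks and cover counting error only.

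Every one of the 9 genes had a RARα peak, an RXRα region and a co-localized RARα peak within 10 kb. Over all genes the shares were 52.2% for a RARα peak, 39.8% for an RXRα region and 23.5% for a co-localized peak. Within 1 kb of the start, RARα peaks were present at 9 of 9 genes, where 40.9% of all genes had one. RXRα regions within 1 kb were present at 8 genes against 21.6% of all genes, and co-localized peaks at the same 8 against 15.8% of all genes. Mat1a was the exception at both. The 9 genes held 52 RARα peaks and 34 RXRα regions within 10 kb, and 18 of the 52 peaks, or 34.6%, were co-localized. That share is near the 33.1% of the 18093 RARα peaks above 20 within 10 kb of any gene start, each counted once. The pooled share hid differences between genes. At Mat1a 1 of 10 peaks was co-localized, at Gnmt 4 of 11 and at Ahcy 2 of 15. Elsewhere the counts were 4 of 5 at Cbs, 2 of 3 at Bhmt2 and at Cth, 1 of 3 at Mthfd1, and 1 of 1 at Bhmt and at Shmt1. These counts depend on how peaks were split, since many at Mat1a, Gnmt and Ahcy lay in runs of peaks 10 bp apart. Every such run with a counted peak held a co-localized one at Gnmt, but not at Mat1a or Ahcy.

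**Figure D1:**
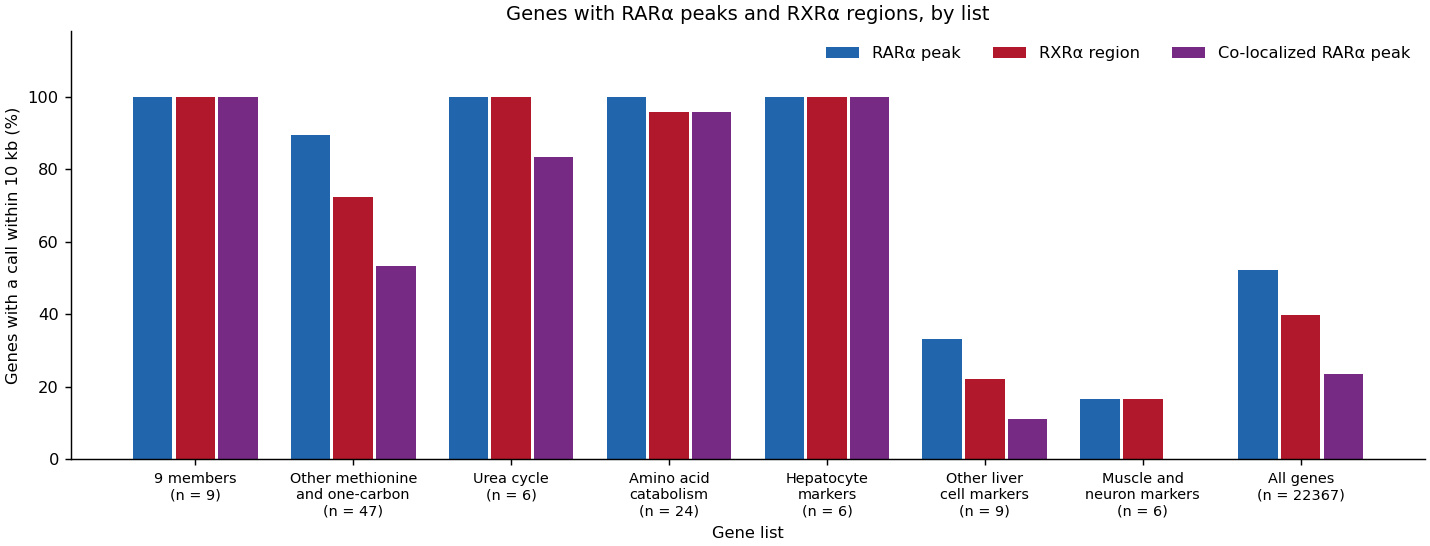
Share of genes, in percent, with a RARα peak, an RXRα region and a co-localized RARα peak within 10 kb of the gene start, for the 9 members, 6 comparison lists and all 22367 genes. All 3 bars of the members stand at 100%, against 52.2%, 39.8% and 23.5% in all genes, and the bars of hepatocyte markers are as high.

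The strongest RARα peak of each gene lay close to its start. In 9 of 9 genes the summit of highest score within 10 kb was within 1 kb of the start, with a median distance of 75 bp. Over the 11676 genes with a peak, 66.8% had their highest summit within 1 kb, and the median distance was 216 bp. The RXRα regions were placed otherwise. The region of highest ratio within 10 kb lay within 1 kb in 3 of 9 genes (33.3%), near the 34.5% of the 8900 genes with a region. Thus the RARα peak of highest score and the RXRα region of highest ratio of a gene were often at different places.

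**Figure D2:**
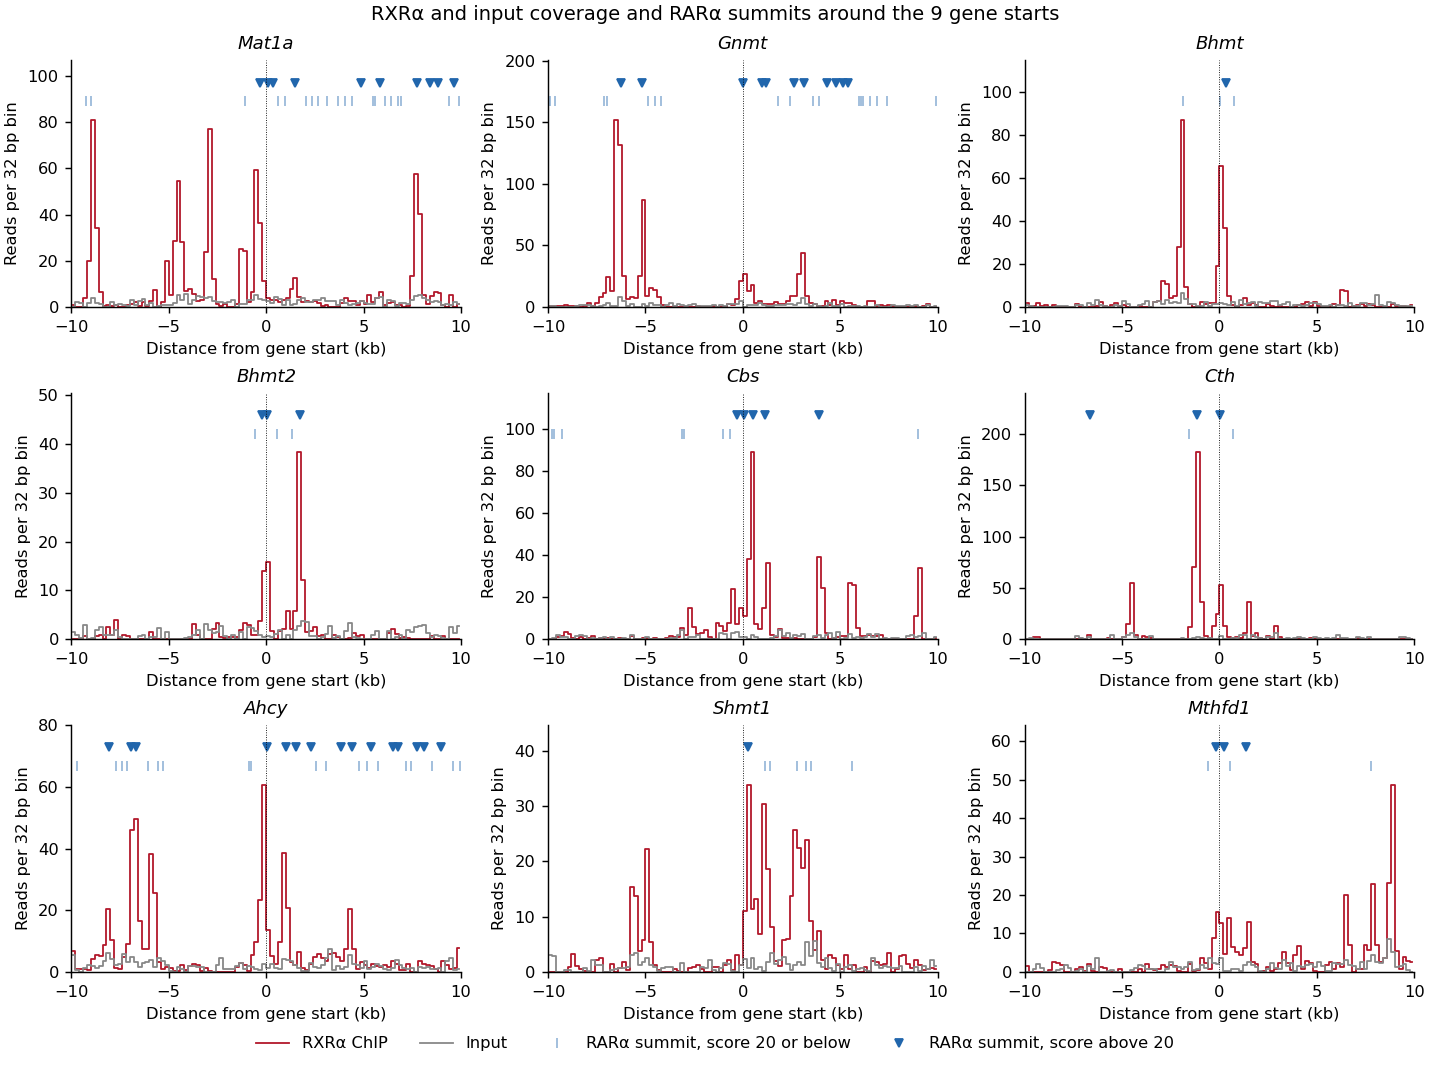
RXRα and input coverage within 10 kb of the 9 gene starts, as mean reads per 32 bp bin in windows of 200 bp against distance from the start in kb, with RARα summits marked above (triangles, score above 20, and ticks, 20 or below). RXRα rises in separate narrow peaks over an input that stays low, and the triangles are most numerous at Mat1a, Gnmt and Ahcy, with 10, 11 and 15 against 1 to 5 at the other genes. Many triangles of Mat1a, Gnmt and Ahcy belong to runs of peaks set 10 bp apart.

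The methionine cycle itself is represented by Mat1a, Gnmt and Ahcy, and these 3 had the most RARα peaks as listed. Many of those peaks were pieces of longer runs set 10 bp apart. Mat1a encodes the liver methionine adenosyltransferase that makes S-adenosylmethionine. It lies on the plus strand at chr14:41918670-41937701 and had 10 RARα peaks and 6 RXRα regions within 10 kb, with only 1 peak co-localized. Its highest RARα score was 52, at 75 bp in the untranslated part of exon 1, where RXRα was 2.41 times input. The strongest RXRα regions lay upstream, without a RARα peak above 20. One reached 63.0 times input at −4413 bp, where no RARα peak of any score overlapped. Another, with a highest signal of 101 reads at −8925 bp and a highest ratio of 56.0, met a RARα peak that scored 17. The single co-localized peak within 10 kb had a score of 47 and lay in intron 3 at 7725 bp. Closer to the start, at −335 bp, a RARα peak scored 39 over an RXRα signal of up to 71 reads per bin, but the input reached 7 there, the enrichment was 9.11, and the 20 times required were not met. Mat1a therefore carried RARα at its start, RXRα below the threshold beside it, and its called RXRα regions further away. Within 10 kb the ratio of RXRα to input was 3.81 (interval 3.33 to 4.36, from 1051 and 276 reads).

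Gnmt encodes glycine N-methyltransferase, which spends S-adenosylmethionine on glycine and is abundant in liver. It lies on the minus strand at chr17:46862613-46866117, the shortest body of the 9. Its 11 RARα peaks within 10 kb included the highest score of all 9 genes, 134 at 12 bp in exon 1, and 4 of the 11 were co-localized. RXRα peaked upstream, in one region with its highest signal at −5132 bp and a highest ratio of 87.0, and in another at −6412 bp with 203 times input. The latter bin held 203 RXRα reads over 1 input read, the highest ratio within 10 kb of the 9 starts. The RARα peaks there scored 23 and 41. The ratio within 10 kb was the highest of the 9, at 5.91 (5.04 to 6.98, from 1041 RXRα and 176 input reads). The 101 bases centred on the bin of highest RXRα signal, chr17:46872479-46872579 on the minus strand of mm9, are shown because this region combined the largest ratio within 10 kb with a RARα peak. Capitals mark half-sites on either strand, the 6 base units that nuclear receptors of this class bind. The forms searched were the consensus AGGTCA together with GGGTCA as another form, with AGTTCA as a further form, and with GGTTCA as the last.
Gnmt upstream region: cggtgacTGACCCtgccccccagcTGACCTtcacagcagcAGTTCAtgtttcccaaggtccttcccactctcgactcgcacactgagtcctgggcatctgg
This window held 3 half-sites. At least 3 were found in 2.94% of such windows over the 42117 RXRα regions of the genome, and 50.5% held none.

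Ahcy encodes adenosylhomocysteinase, which splits S-adenosylhomocysteine into homocysteine and adenosine. It lies on the minus strand at chr2:154885046-154900233. It had 15 RARα peaks within 10 kb, the most of the 9, but only 2 were co-localized. The highest scored 132, at 38 bp in exon 1, and overlapped an RXRα region with its highest signal of 81 reads at −168 bp and a highest ratio of 78.0. A second group of RARα peaks lay upstream, with scores of 80 at −8092 bp, 52 at −6917 bp and 49 at −6667 bp, of which the last was co-localized. The RXRα region of highest ratio at Ahcy, 94.6 times mean input in a bin without input, had a highest signal of 57 reads. It was centred at −5832 bp and met a RARα peak with a score of 19, just under the threshold. Ahcy thus had receptor signal both at its start and in an upstream group. The ratio within 10 kb was 3.07 (2.67 to 3.55). The window at chr2:154906015-154906115 on the minus strand is shown because of the pairs found in the 9 genes it held the one closest to a bin of highest RXRα signal, with an exact half-site followed after 2 bases by GGGTGA, which differs from a half-site by 1 base.
Ahcy upstream region: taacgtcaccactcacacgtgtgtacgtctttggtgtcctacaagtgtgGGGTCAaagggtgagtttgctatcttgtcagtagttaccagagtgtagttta

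The RARα peaks of these 3 genes spread over their whole bodies. RARα peaks of any score covered 96.4% of the Mat1a body, 93.6% of Gnmt and 92.3% of Ahcy, while the other 6 bodies were covered to between 4.64% and 19.0%. Over all genes 2.66% had at least 50% of the body under RARα peaks. There were 50 RARα peaks of any score in the Mat1a body, 31 in Ahcy and 7 in Gnmt, most of them placed end to end with a gap of 10 bp. Peaks set 10 bp apart shared the same false discovery rate in 99.9% of cases, against 15.9% for other neighbouring peaks. They are counted here as separate peaks. When runs were joined, the 52 peaks of the 9 genes became 23. Counted by run, Gnmt and Ahcy still had the most, and Mat1a had no more than Cbs or Cth.

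Few RARα peaks of this spread met a called RXRα region, although RXRα over the 3 bodies was above input. The body ratio was 2.23 at Mat1a, 5.22 at Gnmt and 2.77 at Ahcy, at the 86.6, 98.2 and 91.5 percentile of all genes. Of the 53 RARα peaks more than 1 kb downstream of a start, 21 were at Mat1a, 18 at Ahcy and 7 at Gnmt, and 9 of the 53 were co-localized. Their median RXRα enrichment over input was 2.17, against 9.90 at the 16 peaks within 1 kb of a start; the 7 peaks further upstream ranged from 1.76 to 51.8. At Ahcy 0 of the 18 downstream peaks were co-localized. In the longest RARα run at Mat1a, 8141 bp that began 12181 bp past the start and ended 1290 bp past the gene end, RXRα was 2.54 times input (1.96 to 3.32). In the longest run of Ahcy, 5060 bp, it was 1.78 times (1.22 to 2.62).

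The input was high over the same bodies. It stood at 3.38 times the genome mean over Mat1a, 3.43 over Gnmt and 3.04 over Ahcy, and between 1.63 and 2.07 times over the other 6 bodies. The same held across the genome, where the 596 genes with at least 50% of the body under RARα peaks had a median input of 2.31 times the mean and the other 21771 genes 1.01 times. This input belongs to the RXRα experiment, and no input track for RARα was analysed here. The part of the raised input in the RARα coverage was not tested.

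**Figure D3:**
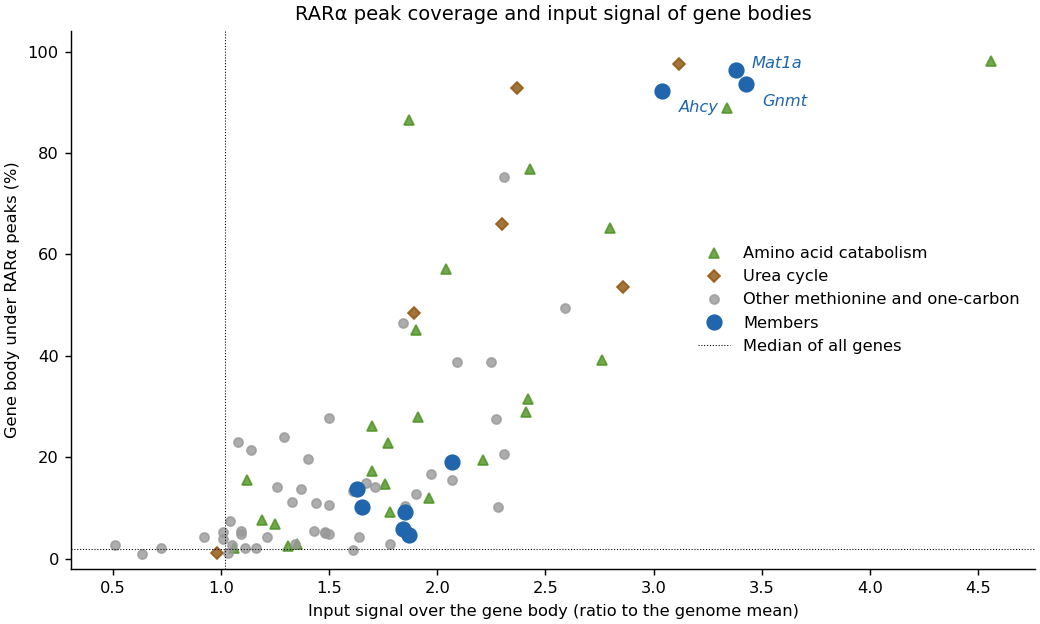
Share of each gene body under RARα peaks of any score, in percent, against the input signal over the body as a ratio to the genome mean, for the members and 3 comparison lists, with dotted lines at the medians of all genes. Mat1a, Gnmt and Ahcy sit above 92% with input of 3.04 to 3.43 times the mean, and the other 6 members sit at or below 19.0% with 1.63 to 2.07 times.

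Homocysteine remethylation is represented by Bhmt and Bhmt2, a pair of neighbouring genes on the minus strand of chromosome 13. Bhmt encodes betaine-homocysteine methyltransferase, which rebuilds methionine with a methyl group from betaine. It lies at chr13:94386846-94407916 and had a single RARα peak within 10 kb, with a score of 21 at 316 bp in the untranslated part of exon 1. That peak was co-localized with an RXRα region that had a highest ratio of 96.2 and its highest signal, 69 reads, at 123 bp. The highest RXRα bin of Bhmt was not in that region. It lay at −1925 bp with 102 reads over 8 input reads, a ratio of 12.7, below the 20 times required. A RARα peak with a score of 19 overlapped a short RXRα region nearby at −2117 bp. At both sites of Bhmt the RARα score, 21 and 19, stood next to the threshold of 20. The 27 bases at chr13:94407786-94407812 on the minus strand, beside the RXRα maximum in exon 1, hold a pair of half-sites that face each other.
Bhmt exon 1 half-sites: GGGTCAtggataccTGACCCcagatca
The 101 base window around that maximum held 4 half-sites, and 0.563% of the windows of all RXRα regions held at least 4. Bhmt and Gnmt held the most among the windows at each gene's region of highest ratio within 10 kb. Those of Bhmt2, Cbs, Ahcy and Shmt1 held 1, and those of Mat1a, Cth and Mthfd1 held none.

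Bhmt2, whose enzyme passes a methyl group from S-methylmethionine to homocysteine, lies at chr13:94425675-94444257. It had 3 RARα peaks and 2 RXRα regions within 10 kb. The highest RARα score was 49, at 32 bp in the coding part of exon 1, and the peak overlapped an RXRα region with 26.5 times input. The strongest RXRα region, with a highest ratio of 29.0 and its highest signal in intron 1 at 1744 bp, also carried a RARα peak, with a score of 38. By the highest ratio of a region and by the ratio within 10 kb, Bhmt2 was lowest of the 9 in RXRα. Its ratio within 10 kb was 1.48 (1.18 to 1.87), at the 68.5 percentile of all genes, while the other 8 lay between the 86.5 and the 99.3 percentile. The start of Bhmt2 is 131 bp from that of Dmgdh on the opposite strand, which encodes dimethylglycine dehydrogenase and removes the product of the Bhmt reaction. The same peaks lie within 10 kb of both starts and cannot be assigned to one of them.

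Transsulfuration is represented by Cbs and Cth, which had the highest RXRα over input within 1 kb of the start. Cbs encodes cystathionine beta-synthase and lies on the minus strand at chr17:31749568-31774144. It had 5 RARα peaks within 10 kb, of which 4 were co-localized, and 7 RXRα regions, the most of the 9. The highest RARα score, 51 at 509 bp, lay in an RXRα region that reached 101 times input with a highest signal of 112 reads at 495 bp. RXRα was 39.4 times input over this RARα peak, the highest enrichment at a RARα peak within 1 kb of any of the 9 starts. Further co-localized peaks followed in intron 1, with scores of 30 at 1154 bp and 22 at 3899 bp. At the maximum, chr17:31773646-31773675 on the minus strand, a single half-site was found.
Cbs intron 1 maximum: GGGTCAtcgatttccccagttttggatgga
This site lies in intron 1 of the main transcript Cbs-001 and in an untranslated first exon of another annotated Cbs transcript. The ratio within 10 kb was 4.92 (4.09 to 5.96).

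Cth encodes cystathionine gamma-lyase, which releases cysteine from cystathionine. It lies on the minus strand at chr3:157557212-157588041. Its 3 RARα peaks within 10 kb scored 119 at 26 bp, 30 at −1144 bp and 31 at −6664 bp, and the first 2 were co-localized. The region at −1128 bp had the highest RXRα signal of the 9 genes, 209 reads over 3 input reads, and the highest ratio in it was 97.5. RXRα was 51.8 times input over the RARα peak there, which scored only 30, and 22.6 times over the RARα peak at the start, which scored 119. Within 1 kb the ratio of RXRα to input was 14.8 (8.48 to 28.4), beside 14.6 (9.03 to 24.9) at Cbs, the highest values of the 9. The upstream maximum, chr3:157589119-157589219 on the minus strand, is shown because no half-site was found in it.
Cth upstream region: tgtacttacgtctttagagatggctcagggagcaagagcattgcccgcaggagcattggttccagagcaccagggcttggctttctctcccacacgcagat

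The folate enzymes Shmt1 and Mthfd1 had few RARα peaks and all of their RXRα regions inside the body. Shmt1 encodes the cytosolic serine hydroxymethyltransferase, which moves a one-carbon unit from serine to folate. It lies on the minus strand at chr11:60601606-60625220 and had 1 RARα peak within 10 kb, with a score of 25 at 275 bp, which overlapped an RXRα region with 44.8 times input. The annotated start belongs to a processed transcript, and the first coding transcript begins 453 bp downstream, so that the RARα summit lies upstream of the coding transcript. All 4 RXRα regions within 10 kb and the fifth in the body overlapped RARα peaks, but 4 of these 5 met only RARα peaks at or below a score of 20. In Shmt1 the RXRα signal was therefore accompanied by RARα calls that were mostly too low to count.

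Within 10 kb the RXRα regions of Shmt1 reached 73.0 times input at 1139 bp, where the overlapping RARα peak scored 16, and another, with its highest signal at 2803 bp and a highest ratio of 42.0, met a RARα peak that scored 15, both in intron 1. The region beyond 10 kb, in intron 7, had its highest signal of 171 reads at 15795 bp. Its highest ratio of 211 was the largest of all 46 regions of the 9 genes, and it met a RARα peak that scored 16. Shmt1 had a body ratio of 4.81 (4.1 to 5.67), the second highest after Gnmt at 5.22 (3.78 to 7.35).

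Mthfd1 encodes the cytosolic enzyme that interconverts folate one-carbon units in 3 steps. It lies on the plus strand at chr12:77356219-77420807 and has the longest body of the 9. It had 3 RARα peaks within 10 kb, with scores of 46 at −174 bp, 34 at 226 bp and 36 at 1366 bp, and the second was co-localized with its only RXRα region there, 31.5 times input. A further 6 RXRα regions lay deeper in the body. The strongest of them had a highest ratio of 50 and its highest signal, 64 reads over 3 input reads, at 34358 bp in intron 10, where no RARα peak overlapped, and 1 of the 6, at 18166 bp in intron 2, met a RARα peak above 20. The highest RXRα bin within 10 kb, at 8854 bp, held 73 reads over 5 input reads, a ratio of 14.6, and was not called. Mthfd1 thus resembled Mat1a in having its strongest RXRα away from RARα.

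**Figure D4:**
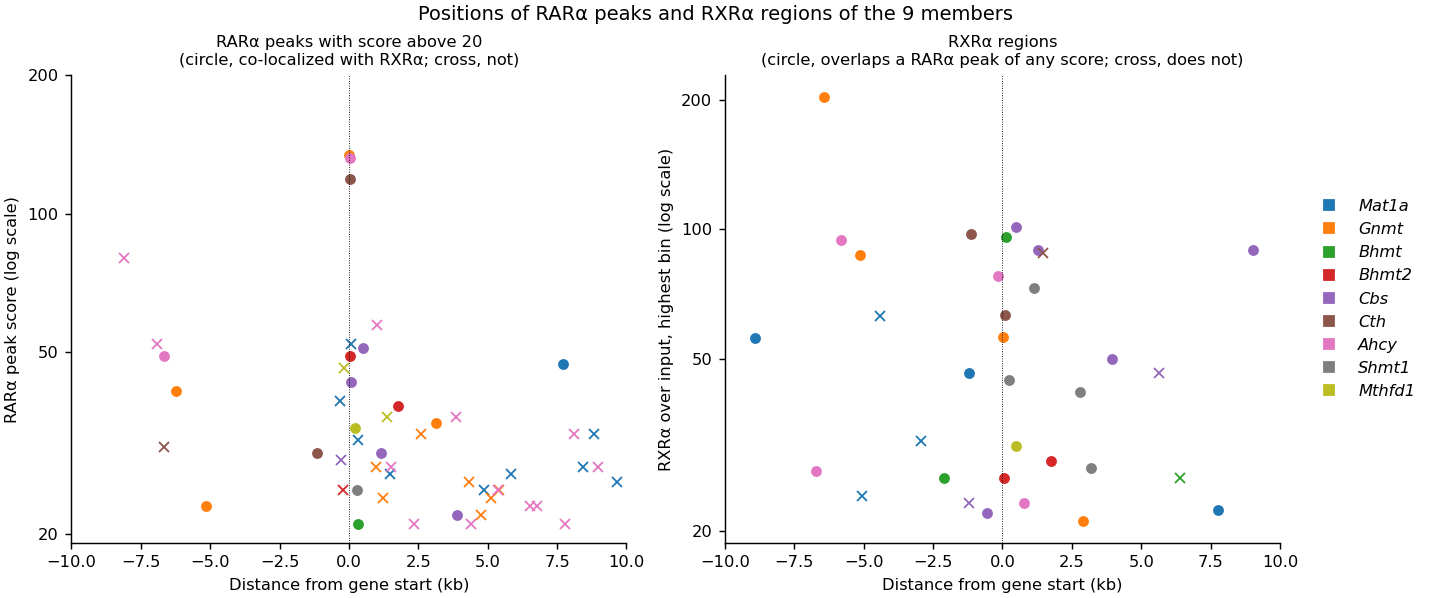
RARα score on a log scale for the 52 peaks above 20 (left) and the highest ratio of RXRα to input on a log scale for the 34 RXRα regions (right), against distance from the gene start in kb (for RXRα, of the bin of highest signal), coloured by gene. The 3 RARα scores above 100, at Gnmt, Ahcy and Cth, lie at the start, while the highest RXRα ratio, 203 at Gnmt, lies upstream.

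The ratios can be ordered, although each rests on 1 library. Within 10 kb the order from the top was Gnmt 5.91, Cbs 4.92, Cth 4.86, Mat1a 3.81, Shmt1 3.78, Ahcy 3.07, Bhmt 2.85, Mthfd1 2.48 and Bhmt2 1.48. Each neighbour in this order had an interval that overlapped the next, except Mthfd1 at 2.07 to 2.98 and Bhmt2 at 1.18 to 1.87. All 9 lower bounds were above 1. The median ratio of mean signal was 3.79 in the 9 genes and 0.990 in all genes. For these medians, the genome mean replaced any input below it. This lowered the ratio of many genes in the whole set but of none of the 9, and it widens the gap. Over gene bodies the median was 2.64 against 0.839, and the order changed, since Shmt1 stood in the second place and Cth, with 1.66 (1.4 to 1.97), in the seventh. The input itself was also above the genome mean within 10 kb, with a median of 2.06 times against 1.07 in all genes, and the ratios are relative to that input.

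**Figure D5:**
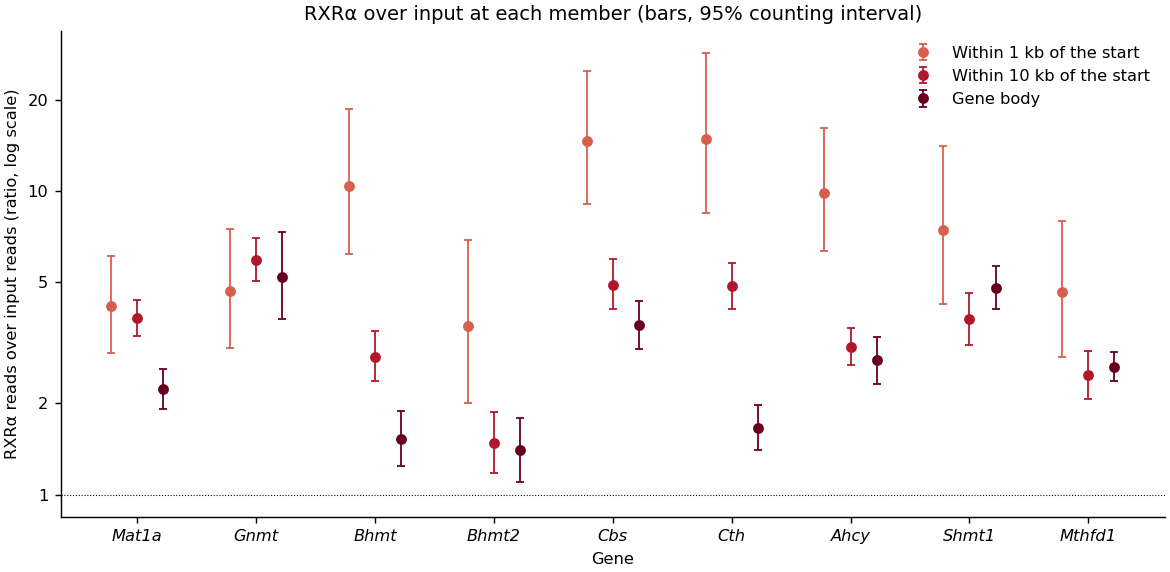
Ratio of RXRα reads to input reads on a log scale for each gene within 1 kb of the start, within 10 kb of the start and over the gene body, with bars for the 95% counting interval. All bars stand above 1, Cbs and Cth are highest within 1 kb at 14.6 and 14.8, and Bhmt2 is lowest in each of the 3 measures.

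Taking windows and bodies together, the 9 genes held 46 RXRα regions. The bin of highest signal lay in an intron in 26, upstream in 15, in a coding exon in 3 and in an untranslated exon in 2. Upstream here is counted from the coding transcript, so the 15 include the Shmt1 region at 243 bp past the annotated start. Of the 46, 34 overlapped a RARα peak of any score, 23 overlapped one above 20, and 12 had no base under a RARα peak. All 10 regions within 1 kb of a start overlapped a RARα peak, 9 of them one above 20. The regions without RARα lay at Mat1a (3), Mthfd1 (4), Cbs (2), Cth (2) and Bhmt (1). No such region was found at Gnmt, Ahcy, Bhmt2 or Shmt1.

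The sequences under the RXRα regions were searched for direct repeats of the 4 half-site forms, with 1 to 5 bases between, on both strands and in 201 bp around the bin of highest signal. Overlapping matches were counted separately. An exact pair was found in 1 of the 46 regions (2.17%), against 3.25% of all 42117 RXRα regions and 0.608% of windows 1 kb away from them. It lay at Ahcy, chr2:154885083-154885110 on the plus strand, 15137 bp past the start in the untranslated part of the last exon, with a spacing of 4 bases.
Ahcy exact pair: ctttccAGGTCAaatgGGTTCAgtaaat
With 1 mismatch allowed, 9 of 46 regions held a pair (19.6%), against 24.9% of all regions and 8.46% of the windows away from them. The shares of the 9 genes were thus no higher than those of RXRα regions in general. Pairs near strong RXRα signals are shown, at Gnmt −5132 bp with a spacing of 2 (chr17:46871220-46871245, plus strand), at Gnmt −6412 bp with a spacing of 5 (chr17:46872544-46872572, plus strand), at Cth 1464 bp with a spacing of 4 (chr3:157586585-157586612, minus strand) and at Ahcy −5832 bp with a spacing of 2 (chr2:154906047-154906072, minus strand). Capitals mark the pair, with 6 bases on either side.
Gnmt spacing 2: aggattGGGTCActGGGCCAacaccc
Gnmt spacing 5: ctgtgaAGGTCAgctggGGGGCAgggtca
Cth spacing 4: tgtaatAGTTCAagccATTTCAtcatct
Ahcy spacing 2: agtgtgGGGTCAaaGGGTGAgtttgc
A match describes letters only and does not show binding at that base.

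Promoter composition differed among the genes. From 250 bases before to 50 after the start, the ratio of observed to expected CpG ran from 0.281 at Mat1a, the one gene without an RXRα region within 1 kb, through 0.351 at Shmt1, 0.387 at Gnmt, 0.441 at Bhmt, 0.509 at Cth, 0.631 at Ahcy and 0.641 at both Cbs and Mthfd1 to 0.664 at Bhmt2. The median of all genes was 0.534. Neither the 3 genes of highest RARα score, Gnmt, Ahcy and Cth, nor the 3 with covered bodies stood together in this order.

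Among 47 other genes of methionine, folate, choline, polyamine and sulfur metabolism, 42 had a RARα peak, 34 an RXRα region and 25 a co-localized peak within 10 kb. These shares of 89.4%, 72.3% and 53.2% were above those of all genes and below those of the 9. The highest RARα scores belonged to Amt, of the glycine cleavage system, with 187, Cdo1, the cysteine dioxygenase, with 158, and Mat2a, the methionine adenosyltransferase of most other tissues, with 151. Mat2a had no RXRα region within 10 kb. The highest RXRα ratios were 249 at Aldh1l1, a folate dehydrogenase, 172 at Csad, of taurine synthesis, and 163 at Ahcyl1, a relative of Ahcy. Aldh1l1 had 6 RXRα regions and no RARα peak above 20, the highest score being 19. Neither a RARα peak nor an RXRα region was found at Mthfd2l, Ggh and Sms.

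In related pathways of the hepatocyte most genes were called as well. All 6 urea cycle genes had a RARα peak and an RXRα region and 5 had a co-localized peak. Of 24 genes of amino acid catabolism, 24, 23 and 23 had them. At least 50% of the body lay under RARα peaks in 4 of the 6 and 6 of the 24, against 3 of the 9 members and 1 of the 47 other pathway genes, which was Gamt with 75.3%. The median gene length was 21071 bp in the 9 members, 22482 bp in the other pathway genes, 32170.5 bp in the urea cycle and 29378 bp in amino acid catabolism, and its part in these counts was not tested. No list was tested against another.

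As a check of the tissue, 6 of 6 hepatocyte markers had a RARα peak, an RXRα region and a co-localized peak, and input over their bodies had a median of 3.07 times the genome mean. Cps1, a marker here, is also among the urea cycle genes above. At least 50% of the body lay under RARα peaks in 5 of the 6 hepatocyte markers. Of 9 markers of Kupffer, stellate, endothelial and bile duct cells, 3 had a RARα peak, 2 an RXRα region and 1 a co-localized peak. Of 6 markers of muscle and neurons, 1, 1 and 0 had them. The hepatocyte markers differed from the 9 members in other measures, with a median highest RARα score of 168 against 51 and a co-localized peak within 1 kb at 3 of 6 genes against 8 of 9.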

How the data were processed

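Liver chromatin of wild type mice gave 1 ChIP-seq library each for RXRα, RARα and input. According to the labels and methods, the authors aligned reads with Bowtie and called peaks with MACS, and the labels name CASAVA 1.4. For RXRα and input the deposited tracks hold a signal, which is whole-number coverage per 32 bp bin. For RARα the authors deposited peaks with a score and a false discovery rate in percent, which was not used as a filter. The methods name mm10 for alignment, whereas the labels name mm9, and 0 RARα peaks lay beyond a chromosome end of NCBI37. Genes were those of GENCODE M1.

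The score of 20, the 10 kb distance, the 20-fold threshold and the 25% overlap take their values from the study's methods. The study called its peaks with MACS, whereas here the 20-fold threshold was applied to single 32 bp bins. The RXRα regions are therefore not the study's RXRα peaks, and counts of the 2 are not comparable. What the RARα score measures is not given in the sources used here. Bins within 200 bp were joined, and tracks were scaled to the same total. Where a bin held no input, its ratio was taken against the mean input. Ratios of mean signal compared with all genes used the mean input wherever a window or body had less. Region calling and overlap were tested on simulated data. Members, gene lists and settings were chosen with earlier results of these data known. Named genes were the 9 members and, of the 47 other pathway genes, the 3 of highest RARα score, the 3 of highest RXRα ratio, those with neither call, and any with a start within 10 kb of a member. Gamt was named after its value was seen. Ratios were computed with Python 3.11.15, numpy 2.4.6 and scipy 1.17.1 (exact binomial intervals). The deposited tracks summed to 9999939 RXRα and 9999292 input reads, which are not the sequencing depth. Alternatives covered score, fold, overlap, distance, gene assignment and scaling. RefSeq promoter tables of another build were not used. The sequence of 1 item is not reported here.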

Additional observations from a re-analysis of the deposited data

How the results depend on the processing

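No paired analysis was possible because each antibody had 1 library, and no replicate could be left out. Without a score threshold the 9 genes had 134 RARα peaks within 10 kb, and above a score of 50 there were 8 peaks at 5 genes, of which 4 had a co-localized peak. Bhmt, Bhmt2, Shmt1 and Mthfd1 had no RARα peak above 50. Within 1 kb there were 16 RARα peaks and 10 RXRα regions, within 5 kb 33 RARα peaks, and joining peaks set 10 bp apart left 23. At 10 times input there were 63 RXRα regions and at 30 times 22, the latter at 8 genes, without Bhmt2. A co-localized peak was kept by 6 genes at 30 times input, and by 7 with an overlap of 50%, without Bhmt and Mthfd1. The median ratio of RXRα to input reads was 3.78 within 10 kb and 7.43 within 1 kb, and the cause was not tested. The order of genes also depended on the window. Within 5 kb Cth was highest at 7.49, Gnmt stood at 3.26, and Mthfd1 at 2.35 fell just below Bhmt2 at 2.43. Over the body without its first 1 kb, the lowest ratio fell to 0.686, at Bhmt, which was 1.53 over the whole body and turned below 1. In 35 cases, those at 30 times input and 50% overlap with 6 to 8 genes included, gene counts and site counts stayed within 1.5 times the reported value or medians within the interval of the middle gene. In the other 11 cases they moved beyond this. For the ratios of single genes, 46 values stayed within the interval of the reported ratio, 16 moved out of it and 1, at Bhmt, turned below 1.

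A score of 20 and a ratio of 20 decide several calls, as at Bhmt and Bhmt2. The intervals cover counting error in the deposited tracks of 1 library and no difference between animals. The number of reads behind a single RARα peak is unknown.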
